A study of Mus musculus with 6 samples.

Results

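Snail-family transcription factors, the related repressors of epithelial-mesenchymal transition (EMT) and E-cadherin were read in mouse NOTCH1-driven T-cell acute lymphoblastic leukemia (T-ALL) with and without Hes1. The set held 7 genes: Snai3, Snai1 and Snai2, which make up the Snail family, Cdh1, which encodes E-cadherin, and the repressor genes Zeb1, Zeb2 and Twist1. All 14 probes that the platform annotation assigns to these symbols were read, out of 45281 on each array. The genes were chosen by the rise of Snai3 between the groups, seen in the same arrays, with its paralogues, the other repressors and Cdh1 added by name. Their differences between the groups are therefore given as a description, without a test.

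RNA came from 6 samples, 3 of Hes1-/- leukemia (KO) and 3 of Hes1 wild-type leukemia (WT), hybridised to Illumina mouse bead arrays. All 6 came from T-ALL of the genotype ΔE-NOTCH1 Rosa26 Cre-ERT2 Hes1flox/flox, in which bone marrow progenitors had been given an activated NOTCH1 by retrovirus and grown in lethally irradiated NRG mice, a host without T, B or NK cells of its own that keeps other blood cells and stroma. Both groups thus carried the floxed Hes1 alleles and the drug-inducible Cre, which the Rosa26 locus drives in most cell types. KO samples received 4-hydroxy-tamoxifen for 36 hours and WT samples ethanol for 36 hours. The labels also speak of tamoxifen given to secondary recipient mice, and they do not settle whether each RNA came from culture or from a mouse, nor whether replicates were separate tumours, so the spread between replicates may be partly technical. Loss of Hes1 and exposure to the drug with Cre activity cannot be told apart in any other gene, since no sample had the drug with Hes1 intact.

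Snail proteins are zinc finger repressors that bind E-box sequences of the core CAGGTG and recruit histone deacetylases, the demethylase KDM1A and other corepressors through a short amino-terminal SNAG domain. Their best known target is Cdh1, whose product holds epithelial cells together, and ZEB and TWIST factors act on the same class of sites during EMT. In blood cells the family has other roles: mice that lack both Snai2 and Snai3 have defects in lymphocyte development, Zeb1 mutant mice have few T cells, and Zeb2 can drive immature T-cell leukemia in mice. HES1 is itself a repressor, which NOTCH1 induces and which binds N-box and class C sites together with TLE corepressors.

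The targeted gene checked the labels. Hes1 measured 4.51, 4.44 and 4.66 on the KO arrays, against 10.97, 11.15 and 10.82 on the WT arrays, in normalised log2 intensity. It was detected on 0 of the 3 KO arrays and on all 3 WT arrays, and was at least 53.5-fold lower in KO. A probe counted as detected on an array when its detection p, which compares it with the negative controls, was under 0.05. "At least" sets the detected group's mean against the detection limit of the other group's arrays. The arrays had mean intensities of 520 to 687 units in KO and 703 to 713 units in WT, with 35.8% to 36.8% and 34.9% to 36.2% of probes detected. KO replicate 1 was the dimmest array. With 3 arrays a group, precision was limited throughout.

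Of the 14 probes, 3 were detected on all 6 arrays, namely the Snai3 probe, a Cdh1 probe and a Zeb1 probe. A further 3 were detected on some arrays, and 8 on none, among 45281 probes of which 56.3% were detected on none. A gene was tested across the whole table when it had a probe detected on at least 3 arrays, which 4 of the 7 genes had (Snai3, Cdh1, Zeb1 and Twist1). Snai1, Snai2 and Zeb2 did not pass. Bead-array intensities of different probes are not on a common scale, so no gene's level is compared with another's.

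**Figure D1:**
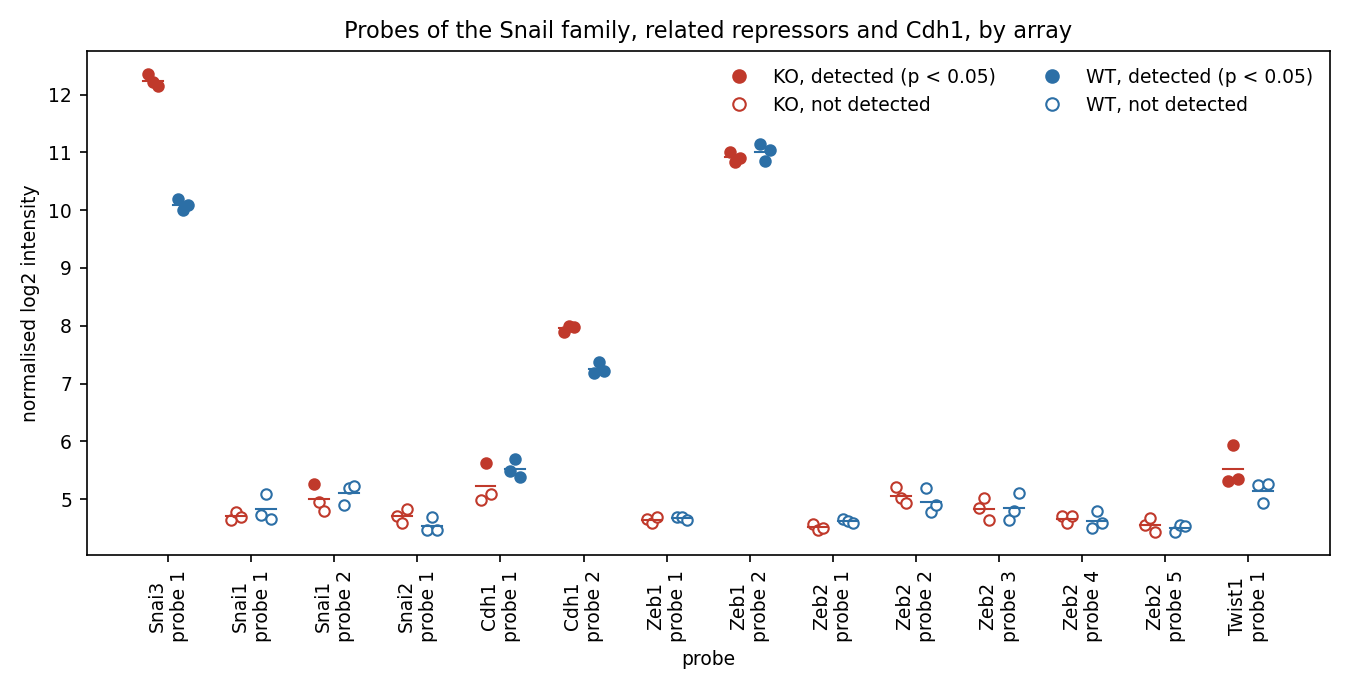
Normalised log2 intensity (y axis) of each of the 14 probes (x axis) on the 3 KO arrays (red, left) and the 3 WT arrays (blue, right); filled points were detected at p under 0.05, open points were not, and short lines are group means. The Snai3 points lie between 12.15 and 12.36 in KO and between 10.00 and 10.19 in WT, while the probes of Snai1, Snai2 and Zeb2 lie near the floor in both groups, with 1 detected point among them.

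Snai3, the third Snail gene, was the family member with a signal in these leukemias. Its probe, ILMN_1239726 (transcript NM_013914), measured 12.36, 12.22 and 12.15 in normalised log2 intensity on KO replicates 1, 2 and 3, against 10.19, 10.00 and 10.09 on WT replicates 1, 2 and 3. All KO values lay above all WT values, with a gap of 1.96 between the lowest KO and the highest WT array. The spread within a group was far smaller, 0.21 from lowest to highest in KO and 0.19 in WT. The means were 12.24 ± 0.11 in KO and 10.09 ± 0.09 in WT (SD, n = 3 each), a difference of 2.15 ± 0.11 (SE), or 4.44-fold. This was the largest rise in KO among the 11241 features, and the next rises by size were of unnamed probes, the first of them at 2.94-fold. The fall of Hes1, at -6.44 (log2), was larger in absolute size.

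Snai3 intensities before any processing differed in the same direction, by a smaller ratio. Snai3 read 3937.2, 4629.5 and 4951.3 units on KO replicates 1, 2 and 3, against 1413.9, 1247.4 and 1294 units on the WT replicates. The means were 4506 ± 518 units in KO and 1318 ± 85.9 units in WT (SD, n = 3 each), a ratio of 3.42. Among the KO arrays the order was that of array brightness, with replicate 1 lowest, and it turned round once the arrays were normalised. Differences between same-numbered arrays were 2.17, 2.22 and 2.06 on the log2 scale. Without any 1 array the log2 difference ran from 2.10 to 2.20.

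Snai1, which encodes Snail, the factor that starts EMT in many epithelia, was at or near background in both groups. Its probe ILMN_1241355 read 126.9, 146.4 and 147.9 units in KO, against 142.2, 160.3 and 145.1 units in WT, and was detected on 0 arrays. Its other probe, ILMN_2904765, read 145.6, 152.8 and 152.2 units in KO, against 149.7, 164 and 166.6 units in WT. That probe was detected on KO replicate 1 alone, at a detection p of 0.0427, and the groups overlapped in normalised intensity. Snai2, which encodes Slug, a Snail factor of neural crest and blood stem cells, had 1 probe. It read 129.8, 137.4 and 153.6 units in KO, against 127.1, 145.1 and 132.2 units in WT, and was detected on 0 arrays. No fold is given for either gene, since neither group was above background as a whole.

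Promoter sequences from RefSeq (GRCm38.p6), from 250 bases before to 50 bases after the start, were at hand for 3 of the 7 genes: Snai1, Twist1 and Zeb2. That of Snai1 is shown because Snail proteins are known to bind E-boxes in promoters, their own included. It lies at chr2:167537945-167538244 on the plus strand. Capitals mark matches on either strand to the E-box CACCTG (read as CAGGTG on the other strand), to the N-box CACNAG and the class C site CACGNG.
Snai1: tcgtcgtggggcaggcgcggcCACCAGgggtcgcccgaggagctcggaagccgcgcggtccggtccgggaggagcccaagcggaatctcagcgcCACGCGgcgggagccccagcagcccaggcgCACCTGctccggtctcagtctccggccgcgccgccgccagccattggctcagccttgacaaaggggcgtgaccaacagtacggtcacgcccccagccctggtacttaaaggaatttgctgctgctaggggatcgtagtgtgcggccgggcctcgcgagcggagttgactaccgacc
The window held 1 E-box, CACCTG at position -126 from the start, 1 N-box, CACCAG, and 1 class C site, CACGCG. Of 32851 RefSeq promoters of the same length, 20.2% held the E-box, 42.5% the N-box and 27.5% the class C site. The letters CACGAG satisfy both the N-box and the class C pattern and are counted under both. The Twist1 window held 0 matches to any of the motifs, and of 4 Zeb2 start sites 2 had an N-box and 0 an E-box. Such matches describe letters only.

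Zeb1, a zinc finger and homeodomain repressor with a known role in T-cell development, was detected on every array through its probe ILMN_2492500. It measured 11.01, 10.83 and 10.90 in normalised log2 intensity on KO replicates 1, 2 and 3, against 11.15, 10.85 and 11.05 on WT replicates 1, 2 and 3. The groups overlapped, and the means were 10.91 ± 0.09 in KO and 11.01 ± 0.15 in WT (SD, n = 3 each). The difference was -0.10 ± 0.12 (SE), smaller than its error. The intensities before normalisation had a lower mean in KO, at 1634.3, 1810.7 and 2149.4 units, against 2641, 2134.9 and 2407 units in WT, but overlapped, and the KO arrays were also dimmer as a whole. When arrays were scaled to a common median instead, the Zeb1 difference was -0.32 and the median of all features -0.17, which put Zeb1 at -0.15 relative to that median. A further Zeb1 probe, ILMN_1251561, read 128 to 147.8 units in KO and 140.9 to 145 units in WT and was detected on 0 arrays.

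Zeb2, the ZEB paralogue that is high in myeloid cells and in immature T-cell leukemias of mice, had 5 probes, and all 5 failed detection on all 6 arrays. Their intensities ran from 123.3 to 162.9 units over both groups, and the lowest detection p was 0.0524. No difference was detectable at this signal.

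Twist1, a basic helix-loop-helix factor that is induced in stimulated helper T cells, lay at the detection limit. Its probe ILMN_1236188 measured 5.31, 5.93 and 5.34 in normalised log2 intensity in KO, against 5.25, 4.93 and 5.26 in WT. The groups did not overlap, but the gap was 0.05, and KO replicate 2 stood well above the other KO arrays. It was detected on all 3 KO arrays (detection p 0.0363, 0.00641 and 0.0363) and on 0 of the 3 WT arrays (0.063, 0.142 and 0.0566). Twist1 therefore passed the detection filter only through KO. The measured means were 5.53 ± 0.35 in KO and 5.14 ± 0.19 in WT (SD, n = 3 each). The log2 difference of 0.38 ± 0.19 (SE) was 0.18 without KO replicate 2 and 0.11 without background correction. In intensity it read 146.8, 184.2 and 172.1 units in KO, against 161.7, 155 and 167.9 units in WT, and these overlapped.

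Cdh1, the E-cadherin gene, was higher in KO by the probe with a clear signal and not by its dimmer probe. The probe ILMN_2628629 (NM_009864) measured 7.90, 8.0 and 7.97 in normalised log2 intensity on KO replicates 1, 2 and 3, against 7.19, 7.38 and 7.21 on WT replicates 1, 2 and 3. The groups did not overlap, with a gap of 0.52 against within-group ranges of 0.11 in KO and 0.19 in WT. The means were 7.96 ± 0.06 in KO and 7.26 ± 0.10 in WT (SD, n = 3 each), a difference of 0.70 ± 0.11 (SE) or 1.63-fold, the 142nd largest rise of 11241. In intensity it read 295, 362.9 and 399.3 units in KO, against 282.6, 307.7 and 284.9 units in WT. On that scale KO replicate 1, the dimmest array, lay within the WT range, so the groups overlapped before normalisation.

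The dimmer Cdh1 probe, ILMN_1227162, is annotated to a different transcript record (AK041755). It measured 4.99, 5.63 and 5.08 in KO, against 5.49, 5.70 and 5.39 in WT, on the same log2 scale. It was detected on 1 of 3 KO arrays and on all 3 WT arrays, and the groups overlapped. Its difference was -0.29 ± 0.19 (SE), opposite in sign to that of the brighter probe. The size of the brighter probe's difference also moved with processing: it was 0.43 without background correction, which was also its value in the authors' deposited log2 values.

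**Figure D2:**
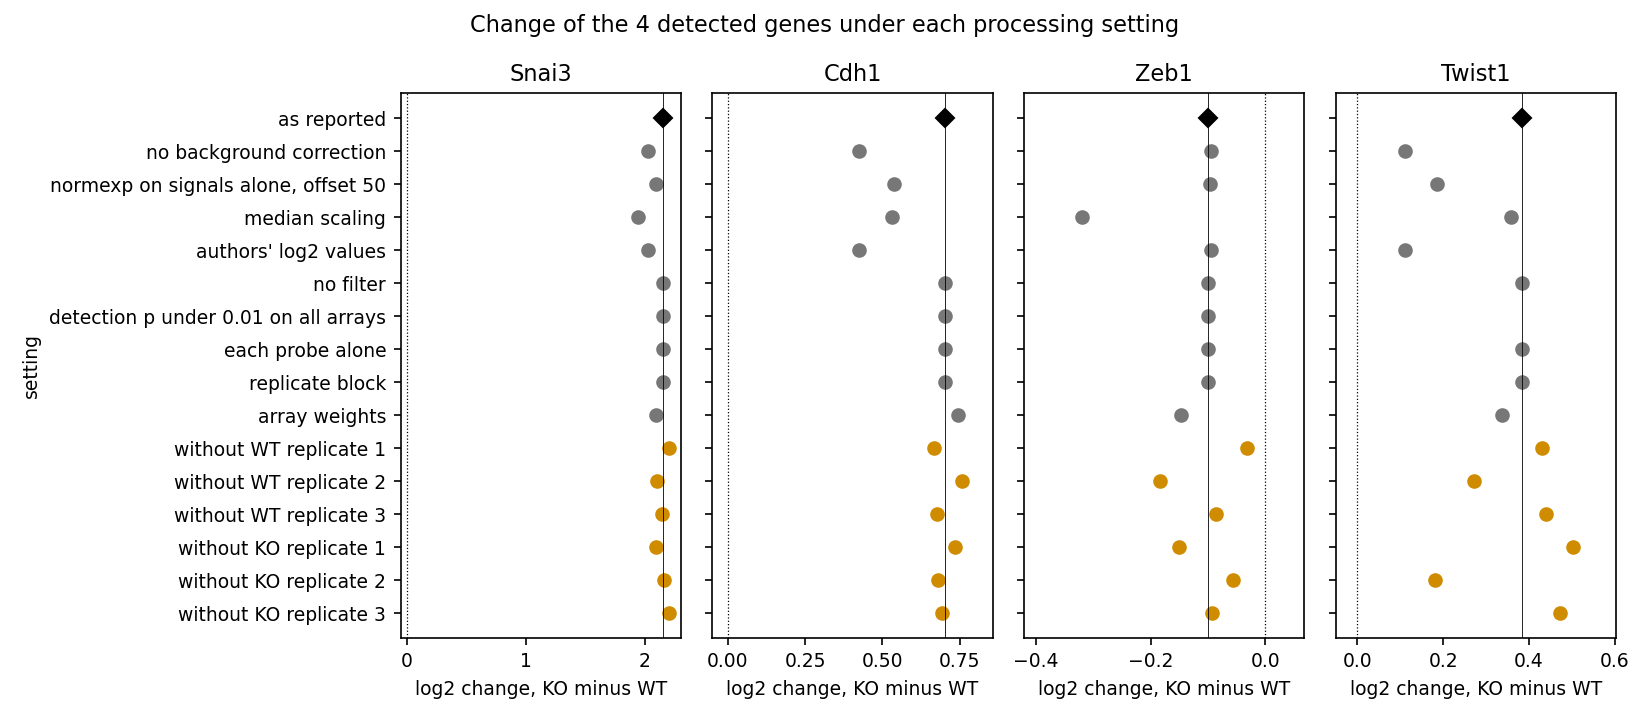
Log2 change, KO minus WT (x axes, which differ in scale), of Snai3, Cdh1 (brighter probe), Zeb1 and Twist1 under each processing setting (y axis); the diamond and solid line mark the value as reported, grey points are other settings, amber points leave out 1 array, and the dotted line is 0. Snai3 stays between 1.94 and 2.20, Cdh1 between 0.43 and 0.76, and Twist1 between 0.11 and 0.50.

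Of the 4 genes that passed the filter, 3 had groups without overlap, all higher in KO (Snai3, Cdh1 and Twist1). Twist1 passed the filter only through KO, the group where it was higher, so its place in this count depends on the filter. Over all 11241 features, groups without overlap were found higher in KO in 8.49% and lower in KO in 7.69%. The genes were picked with these differences in view, so the count is given only for completeness.

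The genes whose values ran most nearly parallel to Snai3 over the 6 arrays, among 8835 other named genes tested, were Ttc7, Prkg1, a cGMP-dependent kinase gene, Tnfaip2, Rapgef3, which encodes the cAMP-activated exchange factor EPAC1, and Sqle, squalene epoxidase. Their Pearson r with Snai3 ran from 0.993 to 0.997. Those nearest to Cdh1 were Plxdc1, Wnt6, a secreted Wnt ligand, Cd160, a receptor of cytotoxic lymphocytes, Ptprr, a tyrosine phosphatase gene, and Rgma, with r from 0.985 to 0.995. The points of each correlation are the same 6 arrays in their 2 groups, so any gene with a step between the groups scores high. A high r did not mean a large change: Ttc7 differed by 0.18 and Prkg1 by 0.17 on the log2 scale, against 1.30 for Wnt6 (limma adjusted p 0.0326), which was the 1 of these 10 genes to pass the test across all features.

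The genes beside Snai3 on its chromosome were read as well, taking the 3 nearest protein-coding genes on each side in the RefSeq order. Of these 6 genes, 5 were tested and all 5 had higher values in KO, with 0 past the test across the whole table. In that test, limma's moderated linear model with Benjamini-Hochberg adjustment, 7 of 11241 features (0.0623%) had an adjusted p under 0.05, 4 of them higher in KO and 3 lower. When the background-corrected arrays were scaled to a common median in place of quantile normalization, 23 passed, 6 higher and 17 lower.

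Mvd, the neighbour on one side, encodes mevalonate diphosphate decarboxylase of the sterol pathway. It measured 10.47, 10.46 and 10.22 in normalised log2 intensity in KO, against 9.63, 9.69 and 9.76 in WT, with no overlap. Its values differed by 0.69 ± 0.12 (SE; limma adjusted p 0.136). Over 15 alternatives the limma adjusted p ran from 0.0344 to 0.462. It was under 0.05 without background correction, with normexp on the signals alone and with array weights. The authors' deposited values, also under 0.05, are in effect the setting without background correction. Rnf166, the neighbour on the other side, encodes a RING-finger ubiquitin ligase. It measured 11.52, 11.34 and 11.46 in KO, against 10.77, 10.95 and 10.93 in WT, again without overlap. Its values differed by 0.55 ± 0.11 (SE; limma adjusted p 0.190). Over the alternatives that p ran from 0.0475, with array weights, to 0.60.

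Next to Mvd lies Cyba, which encodes the p22phox subunit of NADPH oxidase. It measured 13.21, 13.37 and 13.16 in KO, against 13.03, 12.82 and 12.87 in WT, a difference of 0.34 ± 0.12 (SE; limma adjusted p 0.434). Ctu2, a tRNA thiolation gene, differed by 0.22 ± 0.13 and Piezo1, a mechanically gated channel gene, by 0.43 ± 0.26 (SE, log2), and in both the groups overlapped. The Piezo1 value rested on KO replicate 1, which read 9.62 against 8.58 and 8.76 on the other KO arrays, and was 0.11 without it. Without that array Ctu2 was 0.12. With median scaling, which moved the median of all features to -0.17, Cyba was 0.10, Ctu2 0.0014 and Piezo1 0.24. The other Ctu2 probe that passed the filter differed by 0.25 and the other Piezo1 probe by 0.24. The cytokine gene Il17c was detected on 0 arrays. Over the 10 genes on each side, a window chosen after these values were seen, 12 of 20 were tested, 9 were higher and 3 lower in KO. Their median was 0.17 (log2), against 0.00260 for all features. In 4 of the 12 the groups did not overlap and were higher in KO (Mvd, Rnf166, Cyba and, farther out, the corepressor gene Cbfa2t3 at 0.40), and in 1 they were lower (the replication licensing gene Cdt1 at -0.24), where 8.49% and 7.69% of all features did so.

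The promoters of Mvd and Rnf166 are shown because these genes flank Snai3 and had higher values with it. RefSeq (GRCm38.p6) places that of Mvd at chr8:122443373-122443672 on the minus strand and that of the outer of 2 Rnf166 starts at chr8:122476025-122476324 on the minus strand. Capitals mark matches to the same motifs as in the Snai1 sequence.
Mvd: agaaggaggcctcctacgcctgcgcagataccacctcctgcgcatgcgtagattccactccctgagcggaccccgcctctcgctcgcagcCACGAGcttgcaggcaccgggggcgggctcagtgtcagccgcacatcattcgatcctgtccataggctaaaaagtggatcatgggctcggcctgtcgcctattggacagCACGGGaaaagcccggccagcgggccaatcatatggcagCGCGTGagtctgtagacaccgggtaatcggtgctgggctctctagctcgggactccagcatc
Rnf166: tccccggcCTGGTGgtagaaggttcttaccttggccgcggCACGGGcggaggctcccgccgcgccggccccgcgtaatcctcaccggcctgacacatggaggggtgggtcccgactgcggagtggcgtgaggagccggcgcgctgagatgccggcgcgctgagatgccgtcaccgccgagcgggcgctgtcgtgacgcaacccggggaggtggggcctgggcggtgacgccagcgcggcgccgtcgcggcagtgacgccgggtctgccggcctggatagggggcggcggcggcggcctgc
The Mvd window held 3 class C sites, of which CACGAG also counts as its 1 N-box, and 0 E-boxes. The Rnf166 window shown held 1 N-box, CTGGTG, 1 class C site, CACGGG, and 0 E-boxes. That of the other Rnf166 start, not shown, held 0 N-boxes, 1 class C site, CACGTG, and 0 E-boxes. Of all promoters of this length 42.5% held at least 1 N-box and 27.5% at least 1 class C site, so single matches of this kind are common. The share of promoters with 3 class C sites was not counted.

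**Figure D3:**
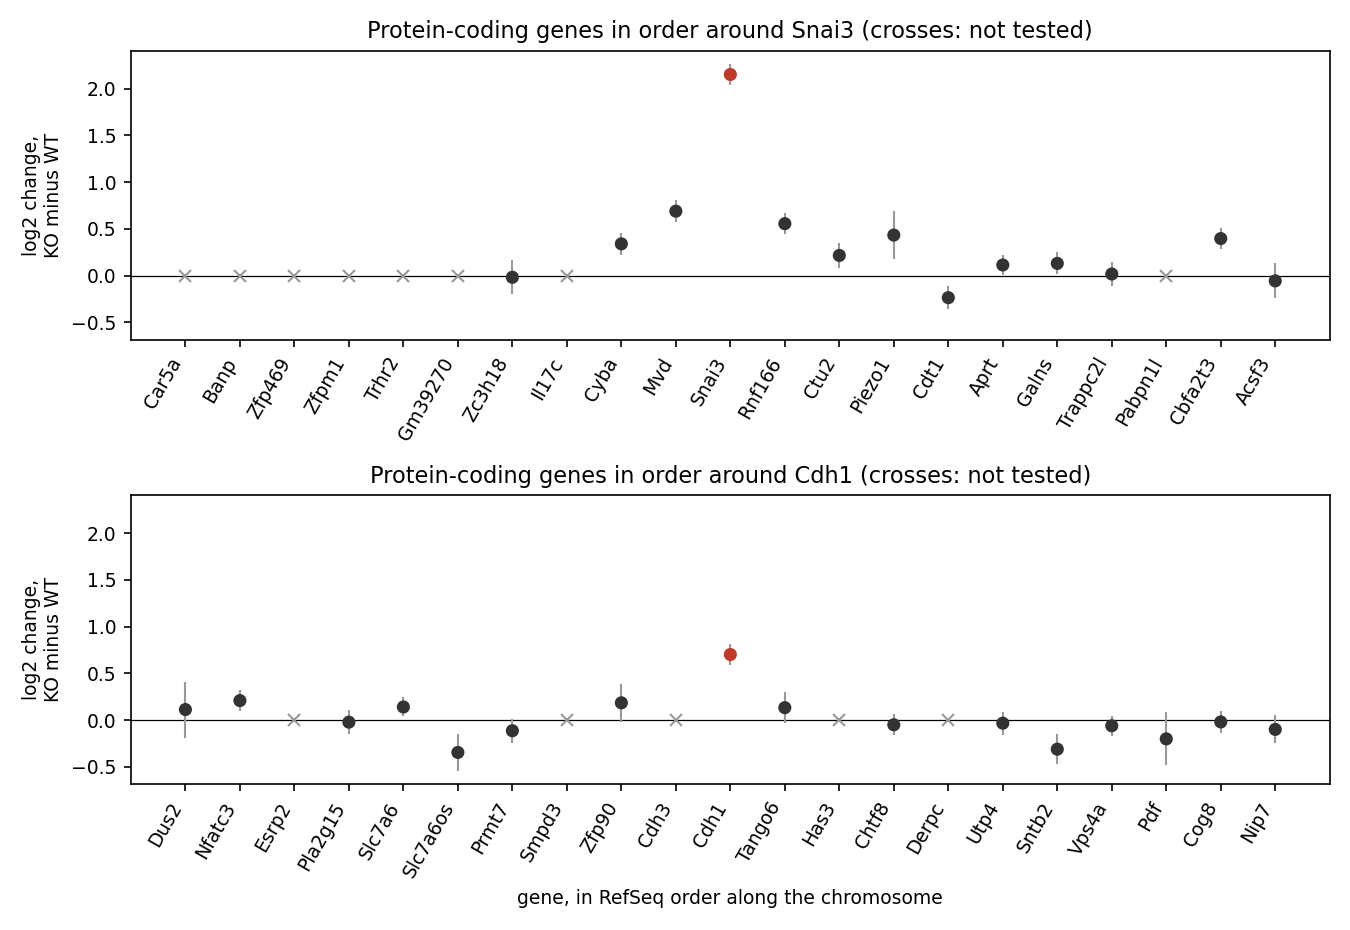
Log2 change, KO minus WT (y axis, points with bars for the SE of the fit), of protein-coding genes in RefSeq order around Snai3 (top) and Cdh1 (bottom), with the central gene in red and crosses for genes that were not tested. Around Snai3, Mvd at 0.69 and Rnf166 at 0.55 flank the peak of 2.15, while around Cdh1 the tested genes lie between -0.35 and 0.21.

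The genes beside Cdh1 were read in the same way. Of its 3 nearest genes on each side, Cdh3, the P-cadherin gene, and Smpd3, a sphingomyelinase gene, were detected on 0 arrays, and Has3, a hyaluronan synthase gene, had no named probe. Zfp90, a zinc finger gene, differed by 0.18 ± 0.20, Tango6 by 0.13 ± 0.17 and Chtf8, a subunit of a clamp loader, by -0.05 ± 0.11 (SE, log2), with limma adjusted p between 0.783 and 0.903. The signs of Zfp90 and Tango6 turned in some settings. Over the 10 genes on each side 15 were tested, 5 higher and 10 lower in KO, with a median of -0.03. In 2 of the 15 the groups did not overlap and were higher in KO (Nfatc3 at 0.21 and Slc7a6 at 0.14). In 0 they were lower without overlap. Over all features these shares were 8.49% and 7.69%. Whether the gene flanks of Snai3 and Cdh1 differ was not tested.

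The rest of the pathway was read from 8 lists of 95 genes, 88 of them represented by a probe and 40 tested. By limma, 0 of the 40 passed an adjusted p of 0.05. Before adjustment 7 were under 0.05 (2 higher in KO, 5 lower), where 9.27% of all features were. In all, 21 had higher and 19 lower values, with a median of 0.03 (log2) against 0.00260 over all features. Of the 7, 5 were dim genes that failed detection on at least 1 array, so their differences lay near the detection limit.

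Corepressors that Snail and ZEB factors recruit were detected for the most part, and 0 passed. Of 10 tested, 6 were higher and 4 lower in KO, with a median of 0.04. Ctbp2, a ZEB corepressor gene, differed by -0.43 ± 0.17 (SE, log2), the methyltransferase gene Ehmt2 by 0.30 ± 0.13 and Ezh2, the Polycomb methyltransferase gene, by -0.54 ± 0.28, with limma adjusted p from 0.492 to 0.609. Ezh2 was lowest on KO replicate 1, at 9.93, against 11.03 and 10.80 on the other KO arrays. Further probes of Ctbp2 and Ezh2 gave -0.10 and 0.10. Ehmt2 probes disagreed: a second bright probe gave 0.25, while a dim one, detected on 0 KO and 3 WT arrays, gave -0.87 ± 0.14. Genes that set Snail protein stability were also near 0, with 3 higher and 4 lower of 7 tested and 0 past the test. Gsk3b, the kinase that marks Snail for destruction, differed by 0.27 ± 0.14 and by -0.02 through a further probe. The ubiquitin ligase genes Fbxl14 and Fbxl5 differed by -0.14 ± 0.11 and -0.09 ± 0.18.

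Other EMT factors gave 4 higher and 1 lower of 5 tested and 0 past the test. Ovol2, which opposes EMT, differed by 0.59 ± 0.30 (SE, log2), but its groups overlapped. It measured 6.88, 6.24 and 6.46 in KO, against 5.27, 6.32 and 6.24 in WT, and WT replicate 1 failed detection. Further Ovol2 probes were detected on 0 arrays. The E-protein genes Tcf3 and Tcf4 differed by 0.21 ± 0.20 and 0.10 ± 0.11. Foxc2, Gsc, Klf8, Grhl2 and Ovol1 were detected on 0 arrays. Of the TGF-beta pathway, which induces Snail genes in epithelium, 8 were tested, 3 higher and 5 lower, with 0 past the test. Smad3, a receptor-activated signal transducer, measured 12.37, 12.34 and 12.20 in KO, against 12.07, 11.66 and 11.78 in WT. Its difference was 0.46 ± 0.14 (SE, log2; limma adjusted p 0.373), and its other probe gave 0.51. The ligand gene Tgfb3 differed by 0.67 ± 0.17 and Tgfb2 by -0.61 ± 0.17, both dim, with limma adjusted p of 0.289 and 0.342.

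Proteins that work with E-cadherin were partly present. The catenin genes Ctnnb1 and Ctnna1, whose products tie cadherins to actin, were detected on all 6 arrays and differed by 0.17 ± 0.11 and 0.15 ± 0.11 (SE, log2), while other Ctnnb1 probes gave -0.00162, 0.03 and, through a dim probe, 0.43. Vcl, the vinculin gene, differed by -0.02 ± 0.14. Afdn, which encodes the junction protein afadin, was dim and differed by -0.49 ± 0.13, with a limma adjusted p of 0.330, and was the 1 list gene to pass when array weights were used. Another Afdn probe ran the other way, detected on 2 KO and 0 WT arrays with means of 5.18 in KO and 4.99 in WT, and a further one was detected on 0 arrays. Ctnnd1 (p120 catenin) and Itgae, the integrin chain by which T cells bind E-cadherin, did not pass the detection filter. Of the other cadherins 1 of 10 was tested. This was Cdh2, N-cadherin, dim and different by -0.60 ± 0.17, with a limma adjusted p of 0.344, and its other probe was detected on 0 arrays.

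Epithelial genes that Snail factors repress elsewhere were for the most part not detected in either group, which does not show that they were silent. Of 14 with a probe, 9 were detected on no array, Epcam, Ocln and Tjp1 among them, and 1 was tested, the claudin gene Cldn7, at 0.05 ± 0.18 (SE, log2). Cldn4, Crb3 and Krt8 were each detected on 0 KO and 2 WT arrays. Among mesenchymal genes 4 were tested, 2 higher and 2 lower, and 0 passed. Vim, the vimentin gene, differed by -0.13 ± 0.11. Acta2, smooth muscle actin, differed by -0.59 ± 0.15 (limma adjusted p 0.309) through a probe that was detected on 0 KO and 3 WT arrays and so passed the filter only through WT. Of its other 5 probes 4 were detected on no array, and the fifth on 1 KO and 1 WT array with overlapping values. Mmp9, a matrix metalloproteinase gene, differed by 0.37 ± 0.17, with a limma adjusted p of 0.579. It was dim, detected on 3 KO arrays and 1 WT array, and the groups overlapped.

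**Figure D4:**
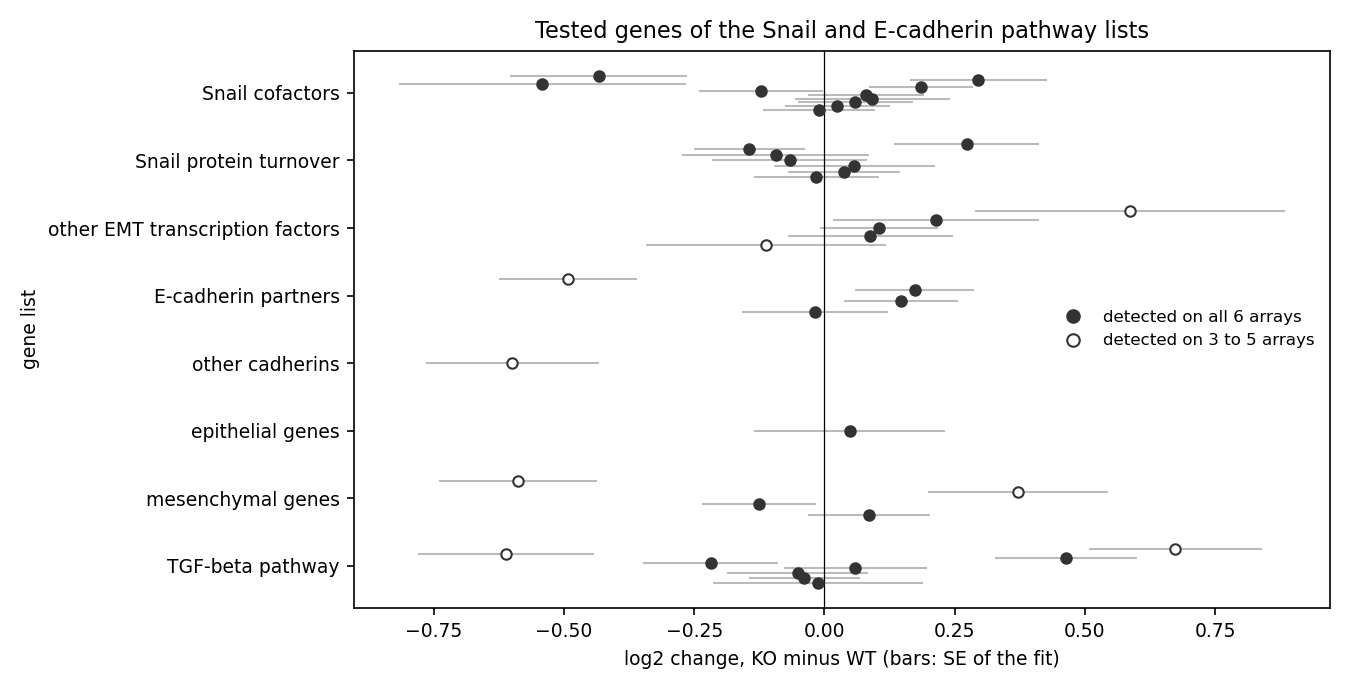
Log2 change, KO minus WT (x axis, bars for the SE of the fit), of each tested gene in the 8 pathway lists (y axis); filled points were detected on all 6 arrays and open points on 3 to 5. Most filled points lie within 0.3 of 0, and 0 of 40 genes passed the test.

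The cell types behind these values were checked with marker genes. Of 10 T-lineage markers with a probe, 7 were tested, Cd3e, Thy1 and Bcl11b among them, and 0 passed. Of the 7, 3 had higher and 4 lower values in KO. The smallest p was that of Ptcra, which differed by -0.25 ± 0.12 (SE, log2; limma adjusted p 0.580). Ptcra was lower in KO without overlap, and Thy1 was higher without overlap, at 0.14. Over all features 7.69% were lower and 8.49% higher in this way. Cd8a and Cd5 were detected on no array, and Cd4, also not tested, through a probe detected on 0 KO and 2 WT arrays. The summed normalised intensity of the T-lineage markers was 105347 to 112454 in KO and 100754 to 109294 in WT. Markers of epithelial cells, the main source of Cdh1 elsewhere, were at or near the floor: 0 of 5 were tested, Epcam, Krt5, Krt14 and Krt18 were detected on no array, Krt8 was detected on 0 KO and 2 WT arrays, and the sums were 132 to 142 in KO and 132 to 145 in WT. B-cell markers had 0 of 3 tested (80.4 to 90.1 in KO and 79.4 to 89.2 in WT). Myeloid and dendritic markers had 0 of 7 tested, with Lyz2, Itgam, S100a8, Mpo, Itgax and Cd207 detected on no array. Their sums were 193 to 197 in KO and 170 to 175 in WT. Csf1r was detected on 1 KO array alone, and the sums include undetected probes. These sums, like those of the B-cell markers, were therefore made up mostly of values near background. Of 3 erythroid markers Klf1 was tested (77.5 to 116 in KO and 87.1 to 148 in WT), and Hba-a1 and Alas2 were detected on no array. Of 6 stromal and endothelial markers 3 were tested. Their sums were 998 to 1341 in KO and 760 to 940 in WT, led by Pecam1, which leukocytes also express, at 0.53 ± 0.16 (SE, log2; limma adjusted p 0.378) and 0.37 through another probe, with Col1a1 and Col3a1 detected on no array. The part of these cells in the Snai3 and Cdh1 differences was not tested. In bulk samples like these, more cells that express a gene and more RNA per cell cannot be told apart.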

How the data were processed

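Total RNA of 3 KO and 3 WT samples was measured, with 10 ng amplified per sample per the labels' protocols. Per the file headers, the deposited table gave each probe's linear intensity on each array beside its detection p-value. The intensities were not normalized between arrays (medians 133.8 to 153.5). A second deposited table held log2 values, which equalled quantile-normalized log2 intensities within 5.0e-05. No source used here names the scanner software. All sample columns belonged to these 6 samples.

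The neqc function (offset 16) of limma 3.58.1 corrected the background and quantile-normalized the intensities, under R 4.3.3. It equalizes the distribution of values, so a shift of most genes one way could not be seen. Probes detected at p under 0.05 on at least 3 arrays were kept (16287). The probe with the highest mean represented a gene, and probes without a single symbol (10378 without any, 18 with several) stood alone, giving 11241 features, 8836 of them named. KO was compared with WT by lmFit and eBayes without covariates, with Benjamini-Hochberg adjustment over all features. Only this fit step was tested on simulated data. The members and lists were chosen with earlier results of these data known. Named genes were all members, the 3 nearest genes on each side of Snai3 and Cdh1, the 5 genes most correlated with each, and up to 3 genes per list by smallest p, and others named are given by detection or by their probes. Same-numbered arrays deviated from their group means with correlations of -0.10, -0.27 and 0.15, so the replicate numbers were not taken as pairs.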

Additional observations from a re-analysis of the deposited data

How the results depend on the processing

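Snai3 and the brighter Cdh1 probe were higher in KO in each alternative run. No filter, the stricter filter, each probe alone and the replicate block could not move their estimates. The dimmer Cdh1 probe, at -0.29 when fitted alone, was not followed over the other runs. The Snai3 log2 difference was 2.03 without background correction, 2.03 in the authors' deposited values and 1.94 with median scaling, where it lay 2.11 above the median of all features, and it ran from 2.10 to 2.20 without any single array. The authors' values equalled the setting without background correction up to rounding, so they are not a separate alternative. Cdh1 (brighter probe) was 0.43 without background correction, 0.54 with normexp on the signals alone, 0.53 with median scaling and 0.43 in the authors' values, and 0.67 to 0.76 without any single array. Zeb1 was -0.18 to -0.03 and Twist1 0.18 to 0.50 without any single array. Twist1 was not tested when detection p under 0.01 on all arrays was required. The number of features past the test was 7, against 36 without background correction, 30 with normexp, 23 with median scaling, 36 in the authors' values, 17 with the stricter detection filter, 2 with a replicate block, 119 with array weights and 2 to 9 without any single array. Of the list genes 0 passed, and 1 (Afdn) with array weights. Zfp90 measured -0.000897 with median scaling and ran from -0.0215 (without KO replicate 1) to 0.32 without any single array, and Tango6 from -0.0473 (without WT replicate 3) to 0.27. The cause of these shifts was not tested. Signal limits the dim probes: differences of Twist1, the second Cdh1 probe, Cdh2, Acta2, Afdn, Mmp9, Tgfb2 and Tgfb3 lie near the detection limit. That of Ovol2 rests on WT replicate 1, which failed detection.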
